A study of Mus musculus with 27 samples.

Results

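The regions described here are 35 bins of 5 kb whose H3K27me3 was high in induced pluripotent stem cells (iPSCs) and low in mouse embryonic fibroblasts (MEFs). They were selected on those values themselves out of 494476 autosomal bins. A bin was taken when its H3K27me3 read count was at least 3 times that of the mean autosomal bin in both iPSC libraries and below 2 times in both MEF libraries. The rule passed 0.00708% of the bins, or 175 kb in all. The level of a bin below is always this ratio to the mean autosomal bin of the same library, and it is given for replicates 1 and 2 in that order.

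The study followed MEFs, partially reprogrammed cells (pre-iPSCs) and iPSCs through MNase ChIP-seq and RNA-seq. MEFs came from mid-gestation embryos hemizygous for an Oct4-GFP transgene and a Rosa26 allele, with a CBA/CaJ and C57BL/6J background on the labels and 129Sv/Jae mothers in the methods. Pre-iPSCs and iPSCs were made from such MEFs with the Yamanaka reprogramming factors, and both were grown in LIF medium on feeder layers that are themselves MEFs. H3, H3K4me3, H3K27me3 and RNA each had 2 biological replicates per cell type, and H3K9me3 had 1. Which pre-iPSC or iPSC clone gave a library is not stated in the sources used here, so the p-values below measure only the spread between these libraries. MEFs were digested with another amount of MNase and for another time than pre-iPSCs and iPSCs, and the digestion and the cell type cannot be told apart.

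H3K27me3 is the mark that Polycomb repressive complex PRC2 places on histone H3, and it covers developmental and lineage genes that a cell keeps silent. H3K4me3 marks the promoters of active genes and, in pluripotent cells, also stands beside H3K27me3 at many silent developmental genes, a state called bivalent. The bins here are read for which genes lie in them, what the pre-iPSCs carried there, whether H3K4me3 was present, and how the genes were expressed.

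The sequences shown first give the DNA that these bins hold, from the mm9 genome with each CG dinucleotide in capitals. The 4 windows below are the 150 bases before the RefSeq start of a gene whose expression fell from MEFs to iPSCs and whose window meets no annotated exon. The Osbpl5 window lies inside a longer GENCODE model of that gene. They run from CpG-dense at Scarf2 (chr16:17797225-17797374, plus strand, 18 CpG, 77.3% GC) to CpG-poor at Osbpl5 (chr7:150927869-150928018, minus strand, 1 CpG), Optc (chr1:135803751-135803900, minus strand, 1 CpG) and Maml2 (chr9:13424283-13424432, plus strand, 0 CpG, 23.3% GC).
Scarf2 upstream: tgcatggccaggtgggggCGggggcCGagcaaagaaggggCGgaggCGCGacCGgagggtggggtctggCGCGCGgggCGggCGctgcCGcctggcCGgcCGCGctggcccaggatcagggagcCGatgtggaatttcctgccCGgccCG
Osbpl5 upstream: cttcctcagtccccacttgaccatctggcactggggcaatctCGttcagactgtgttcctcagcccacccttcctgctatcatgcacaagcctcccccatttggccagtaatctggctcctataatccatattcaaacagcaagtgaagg
Optc upstream: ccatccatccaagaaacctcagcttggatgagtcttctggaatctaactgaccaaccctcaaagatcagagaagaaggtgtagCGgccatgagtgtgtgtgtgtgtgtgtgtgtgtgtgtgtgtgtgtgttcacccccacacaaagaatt
Maml2 upstream: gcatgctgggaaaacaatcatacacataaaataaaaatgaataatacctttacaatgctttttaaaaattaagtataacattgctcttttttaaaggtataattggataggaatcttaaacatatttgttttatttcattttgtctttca
Over 19300 autosomal genes the same window held a median of 8 CpG, and 62.2% of genes had at least 5. The 9 genes that start in the selected bins had a median of 4, and 4 of them had at least 5. Among the 9, the windows of Osbpl5 and Parvg lie within longer GENCODE models of these genes and not before their start.

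The next 5 sequences are single nucleosomes called in iPSC H3K27me3 replicate 1, each the call with most reads outside exons in its bin. Those of Prdm16 (chr4:153712495-153712640), Unc5a (chr13:55076223-55076368) and Col16a1 (chr4:129755759-129755904) are shown because H3K4me3 rose in their bins. Those of the bin on chromosome 5 (chr5:105357051-105357196) and of Maml2 (chr9:13422550-13422695) are shown because 1 nucleosome held an unusually large part of the bin's reads. All are written on the plus strand.
Prdm16 call: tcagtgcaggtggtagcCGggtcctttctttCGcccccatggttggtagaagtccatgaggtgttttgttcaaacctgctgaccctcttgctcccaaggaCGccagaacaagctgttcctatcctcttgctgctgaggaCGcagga
Unc5a call: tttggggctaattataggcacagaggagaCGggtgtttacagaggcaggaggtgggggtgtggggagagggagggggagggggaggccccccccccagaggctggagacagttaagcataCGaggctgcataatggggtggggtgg
Col16a1 call: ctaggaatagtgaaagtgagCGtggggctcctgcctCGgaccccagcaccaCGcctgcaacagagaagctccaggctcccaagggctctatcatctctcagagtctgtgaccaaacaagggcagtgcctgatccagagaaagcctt
Chromosome 5 call: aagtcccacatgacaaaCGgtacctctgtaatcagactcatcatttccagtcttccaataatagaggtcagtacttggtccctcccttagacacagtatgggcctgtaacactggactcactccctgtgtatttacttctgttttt
Maml2 call: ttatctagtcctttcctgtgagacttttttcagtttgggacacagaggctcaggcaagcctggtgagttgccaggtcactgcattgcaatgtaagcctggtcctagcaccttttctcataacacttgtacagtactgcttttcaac
The calls held 8, 11, 9, 36 and 21 reads in iPSC replicate 1, and the nearest call of replicate 2 held 3, 11, 7, 24 and 32 reads. Its centre lay 25, 10, 54, 21 and 20 bp away.

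The H3K27me3 calls held 13224775 to 15222040 reads per library, or 26.1 to 29.7 reads in the mean bin, and the H3K4me3 calls 12007350 to 13146349. Marker genes moved with the cell labels in the RNA, where 6 of 7 fibroblast markers fell and 7 of 7 pluripotency markers rose in iPSCs against MEFs. In pre-iPSCs 6 of 7 fibroblast markers fell and 3 of 7 pluripotency markers (Pou5f1, Tdgf1 and Dppa5a) rose, while Nanog was at 0.519 FPKM in replicate 1 and listed at 0 in replicate 2. Pou5f1 (Oct4), at 378 and 3184 FPKM in pre-iPSCs, is also one of the Yamanaka factors used to induce these cells, and RNA of the delivered gene and of the cells' own gene cannot be told apart in these values. Because these are bulk samples, a lower level in fewer cells and a lower level in each cell cannot be told apart. An H3 library stood apart. In pre-iPSC replicate 1 nucleosomes of more than 50 reads held 44.9% of the reads, against at most 1.4% in the other H3 libraries. Chromosome 8 also stood apart in iPSC replicate 1. Its mean level was 1.436 to 1.49 in the 4 ChIP libraries of that replicate and 1.004 to 1.102 in the other 17 libraries.

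The 35 bins lay on 11 chromosomes and were scattered, as 29 single bins and 3 pairs of adjacent bins. Chromosomes 4 and 8 held 7 each, chromosome 16 held 6 and chromosome 7 held 5. In the GENCODE annotation 21 of them met an exon, 8 an intron only and 6 no gene. RefSeq genes met 25 of the bins (71.4%), compared with 60.2% of the 425 bins at 3 times the mean in both iPSC libraries and 37.8% of all bins. A RefSeq transcription start site (TSS) lay in 9 of them (25.7%), compared with 16.2% and 3.67%. The selected bins were also rich in G and C, and bins of like GC content hold many gene starts. In 15333 bins of GC content near that of the selected bins, 3250 of the 19300 autosomal genes start. The share of such bins that meet a gene or hold a TSS was not counted. The part of GC content in these differences was therefore not tested. The median distance from a bin to the nearest TSS was 8.46 kb and the largest 167 kb.

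The bins were a small part of the H3K27me3-rich regions of iPSCs. Of the 425 rich bins, 143 were at least 3 times the mean in both MEF libraries too, 247 were between the thresholds and 35 (8.24%) met the rule. In the opposite direction, 72 bins were at least 3 times the mean in both MEF libraries and below 2 in both iPSC libraries. Outside the 3 pairs, few neighbours of the selected bins were equally rich. Of the 63 bins that adjoined one and were not selected themselves, 1 reached 3 times the mean in both iPSC libraries and 41 reached 2 times. Over all 494476 bins 425 reached 3 times the mean.

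**Figure D1:**
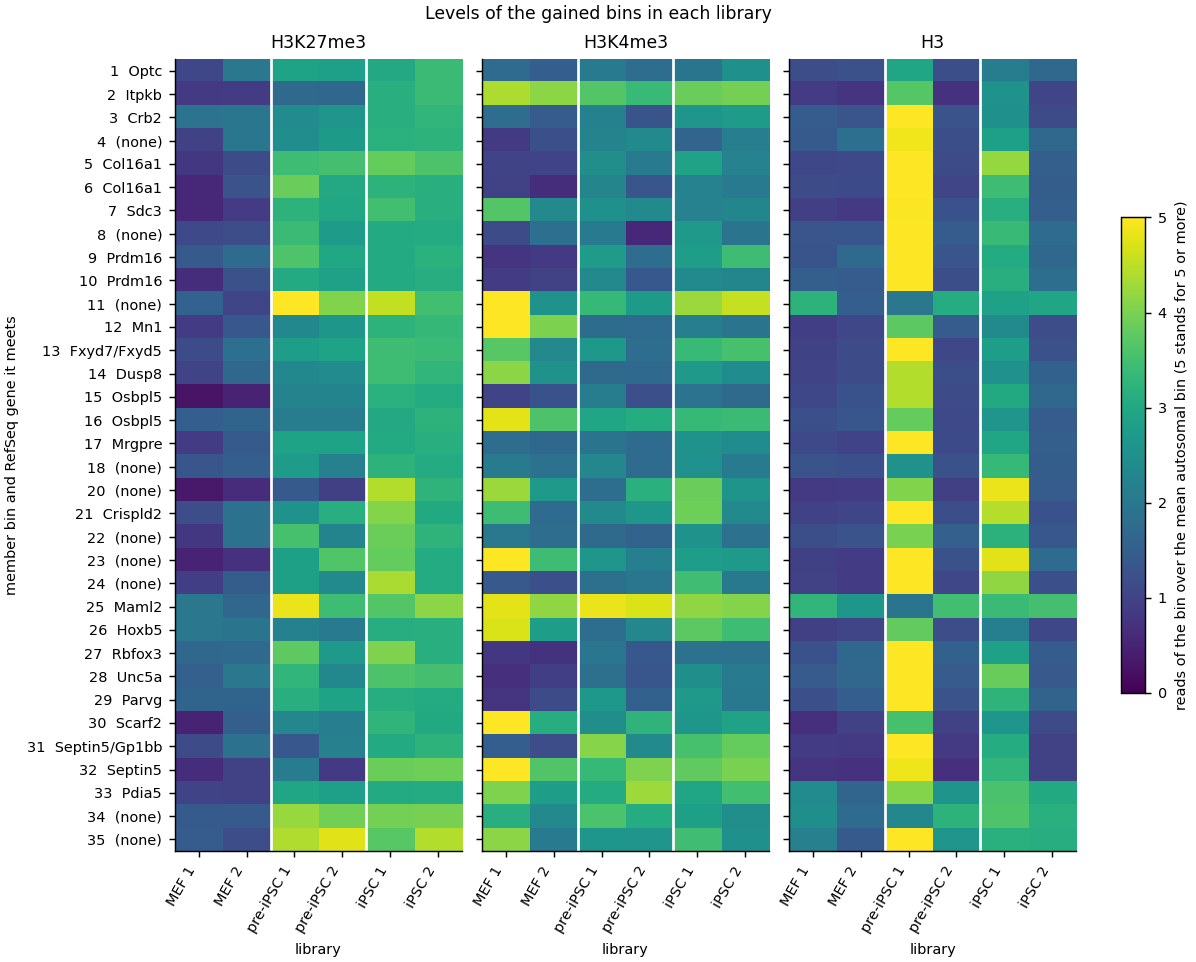
Level of 34 of the 35 bins (rows, with the RefSeq gene each meets) in the 6 libraries of H3K27me3, H3K4me3 and H3 (columns), as a multiple of the mean autosomal bin, where the colour scale ends at 5. In the H3K27me3 panel the MEF columns are at 1.99 or below and the iPSC columns at 3.01 or above because the bins were chosen so, while the pre-iPSC columns run from 0.842 to 5.75.

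Over the 35 bins the MEF levels ran from 0.268 to 1.99 with a median of 1.07 in replicate 1, and from 0.472 to 1.99 with a median of 1.52 in replicate 2. The iPSC levels ran from 3.01 to 4.54 (median 3.27) and from 3.04 to 4.42 (median 3.22). These 4 libraries chose the bins, so the gap is a description and has no test. It rests on 81 to 125 reads per bin in iPSCs and 7 to 59 reads in MEFs, and the plot of levels by bin shows most bins close to a threshold. The 95% Poisson interval of an iPSC level, which covers counting error only, reached below 3 in 32 bins, and that of a MEF level reached 2 or above in 19.

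Among the highest iPSC levels were those of a pair of adjacent bins on chromosome 16 (chr16:35510001-35520000) near Pdia5 that met no RefSeq gene. The first was at 1.42 and 1.42 in MEFs, then 4.22 and 3.94 in pre-iPSCs, then 3.96 and 3.97 in iPSCs. The second was at 1.46 and 1.18, 4.40 and 4.78, and 3.70 and 4.42. In both bins the pre-iPSC and iPSC libraries overlapped, above the MEF libraries. A bin on chromosome 5 (chr5:105355001-105360000), which meets no gene, was at 1.57 and 1.05 in MEFs, then 5.75 and 4.06 in pre-iPSCs, then 4.54 and 3.49 in iPSCs. The bin at the start of Maml2, a Mastermind-like coactivator of Notch signalling, was at 1.99 and 1.65, 4.86 and 3.44, and 3.67 and 4.12. In the last 2 bins the reads were bunched. A single call held 28.8% of the reads of the chromosome 5 bin in iPSC replicate 1 and 29.1% of the Maml2 bin in replicate 2, whereas the median share of the largest call over the 35 bins was 8.99% and 9.3%.

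Other bins with high iPSC levels lay inside genes. The second of a pair of bins at Septin5 (chr16:18620001-18630000), which codes for a filament-forming GTPase, was at 0.651 and 0.977 in MEFs and at 3.89 and 3.90 in iPSCs. A bin in a GENCODE intron of Nfix (chr8:87315001-87320000), a transcription factor of the nuclear factor I family, was at 0.345 and 0.640 in MEFs and at 4.43 and 3.26 in iPSCs. It lies upstream of the RefSeq start of Nfix and meets no RefSeq gene. At Col16a1, which codes for a collagen chain of the extracellular matrix, the bin chr4:129755001-129760000 was at 0.804 and 1.15 in MEFs and at 3.81 and 3.60 in iPSCs. Rbfox3, the neuronal splicing factor known as NeuN, had a bin in an intron (chr11:118455001-118460000) at 1.65 and 1.72 in MEFs and at 4.03 and 3.15 in iPSCs. The remaining 2 of the 10 highest bins (chr8:123425001-123430000 and chr8:124800001-124805000) were likewise intronic in a GENCODE model only, with iPSC levels of 3.89 and 3.26, and of 4.36 and 3.07.

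The 3 pairs of adjacent bins were the one beside Pdia5, the one at Septin5 and one in Prdm16 (chr4:153710001-153720000), a zinc finger factor known for brown fat identity. The Prdm16 bins were at 1.42 and 1.75, and at 0.651 and 1.25, in MEFs. In iPSCs they were at 3.05 and 3.19, and at 3.05 and 3.11. All 4 iPSC values were thus just above the threshold of 3.

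Values next to a threshold differed little across it. Just inside, the bin at Optc (chr1:135800001-135805000) and the bin at the start of Osbpl5 (chr7:150925001-150930000) were at 3.01 in iPSC replicate 1 on 83 reads each, and the bin at Crispld2 (chr8:122515001-122520000) was at 3.04 in replicate 2 on 81 reads. Just outside, bins at Dusp8 (chr7:149270001-149275000), at Zbtb42 (chr12:113915001-113920000) and on chromosome 8 (chr8:12215001-12220000) were at 2.998 in replicate 2 on 80 reads. On the MEF side the bins at Maml2, Hoxb5 and Optc were at 1.99 in 1 library. A bin at Adcy4 (chr14:56390001-56395000) was at 2.02, and bins at chr8:122830001-122835000 and chr2:25030001-25035000 were at 2.06 and 2.09, which kept them out.

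Pre-iPSCs carried H3K27me3 in most of the bins, with medians between those of MEFs and iPSCs. Their levels ran from 1.35 to 5.75 with a median of 2.84 in replicate 1 and from 0.842 to 4.78 with a median of 2.75 in replicate 2. In 33 of 35 bins both pre-iPSC libraries were above both MEF libraries, and in 21 both were below both iPSC libraries. The rule fixed the MEF values low and the iPSC values high. That choice by itself favours pre-iPSC values between them, and these counts are a description. They were not made over all bins, so no base share stands beside them. Bins with a GC content of 51.1% to 54.9% also had higher medians in pre-iPSCs (1.74 and 1.68) than in MEFs (1.11 and 1.55). Their medians in iPSCs were 1.82 and 1.69, near those in pre-iPSCs. At least 3 times the mean in both pre-iPSC libraries was found in 6 bins (17.1%), compared with 0.158% of all autosomal bins and 0.0208% of the 448106 bins below 2 in both MEF libraries. Of the bins with a GC content of 51.1% to 54.9%, the interquartile range of the selected bins, 7.81% reached 3 in pre-iPSC replicate 1 and 5.27% in replicate 2, each library taken alone, where 14 and 8 of the selected bins did. The 6 bins at 3 or above in both libraries were the pair beside Pdia5, the chromosome 5 bin, the Maml2 bin and both bins of Col16a1. In all of them but the Col16a1 bins H3 was also high in pre-iPSC replicate 2, at 2.60 to 3.48. In the Col16a1 bins it was 1.14 and 1.04. The second Col16a1 bin (chr4:129765001-129770000) was at 0.574 and 1.28 in MEFs, then 3.87 and 3.02 in pre-iPSCs, then 3.23 and 3.15 in iPSCs.

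Bins that were still low in pre-iPSCs were few. Below 2 in both pre-iPSC libraries were 2 bins. The Nfix intron bin was at 1.42 and 0.956, and the bin at the start of Itpkb (chr1:182260001-182265000), a kinase of inositol trisphosphate, was at 1.74 and 1.68 before reaching 3.16 and 3.41 in iPSCs. At least 2 times the mean in both pre-iPSC libraries was found in 31 bins (88.6%), compared with 4.29% of all bins and 1.75% of bins low in MEFs. Bins with a GC content of 51.1% to 54.9% had pre-iPSC medians of 1.74 and 1.68, and their share at 2 or above was not counted. The pair at Septin5 and Gp1bb was uneven: its first bin was at 1.35 and 2.18 and its second at 2.09 and 0.842.

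**Figure D2:**
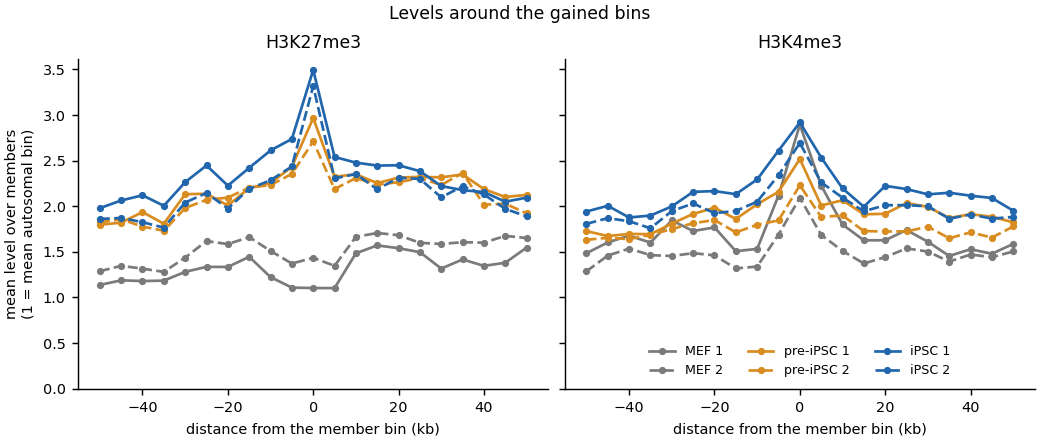
Mean level of H3K27me3 and H3K4me3 over the 35 bins and the 5-kb bins up to 50 kb on either side, as a multiple of the mean autosomal bin, with 1 line per library (replicate 1 solid, replicate 2 dashed). At the bins themselves the H3K27me3 lines reach 1.10 and 1.44 in MEFs, then 2.97 and 2.71 in pre-iPSCs, then 3.49 and 3.32 in iPSCs, and 50 kb before them they are at 1.14 and 1.29, 1.80 and 1.83, and 1.98 and 1.86.

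The surroundings of the bins were also above the genome mean in pre-iPSCs and iPSCs, as the profile around them shows. At 50 kb downstream the mean level was 1.55 and 1.65 in MEFs, then 2.12 and 1.92 in pre-iPSCs, then 2.09 and 1.89 in iPSCs. The values at the centre are fixed by the rule for MEFs and iPSCs, but not for pre-iPSCs, whose centre was the highest point. That peak was not particular to H3K27me3. In pre-iPSCs the centre was also highest for H3K4me3 (2.52 and 2.23), H3K9me3 (1.98) and H3 replicate 1 (4.69). For H3 replicate 2 (1.44) it was not. At the centre, where the rule kept MEFs below 2, the MEF level was 1.10 and 1.44. It was 1.11 and 1.37 at 5 kb upstream and 1.10 and 1.35 at 5 kb downstream. The highest MEF point was 1.57 and 1.71, at 15 kb downstream. Of the 41 neighbouring bins at 2 times the mean or above in both iPSC libraries, 31 were below 2 in both MEF libraries.

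The bins were rich in G and C. Their median GC content was 53.2% (44.7% to 60%), against 41.4% for all bins, and 30 of 35 were above 48.2%, the 90th percentile of the genome. GC content moved with the libraries. Across all bins the Spearman correlation of H3K27me3 with GC, which shares the base composition of each bin and is given as a description, was 0.177 and 0.397 in MEFs, then 0.578 and 0.516 in pre-iPSCs, then 0.565 and 0.468 in iPSCs. The 15221 bins with a GC content of 51.1% to 54.9% had a median H3K27me3 level of 1.11 and 1.55 in MEFs, then 1.74 and 1.68 in pre-iPSCs, then 1.82 and 1.69 in iPSCs. When each level was divided by the mean of bins of the same GC, the selected bins had medians of 0.833 and 1 in MEFs, then 1.66 and 1.68 in pre-iPSCs, then 1.87 and 1.96 in iPSCs. On that scale 0 of the 35 bins met both thresholds.

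Histone H3 and H3K9me3 were high in some of the same bins. The median H3 level was 1.15 and 1.23 in MEFs, then 4.9 and 1.21 in pre-iPSCs, then 3.16 and 1.47 in iPSCs, where bins of the same GC had 1.16 and 1.25, 4.35 and 1.19, and 2.49 and 1.4. After division of H3K27me3 by H3, 0 of the 35 met the rule, and with H3 replicate 2 alone 2 did. In 5 bins (chromosome 5, Maml2, Pdia5 and the pair beside it) H3 was at least 2 in replicate 2 of both pre-iPSCs and iPSCs. H3K9me3, measured once per cell type with no replicate check, had a median of 1.08 in MEFs, then 1.69 in pre-iPSCs and 2.16 in iPSCs. Bins of the same GC had 1.12, 1.37 and 1.45, and the 425 H3K27me3-rich bins of iPSCs had 1.91, 1.84 and 2.41. In the chromosome 5 bin H3K9me3 was at 3.16, 5.26 and 6.94, the highest of the 35 bins in pre-iPSCs and iPSCs. In MEFs the Maml2 bin was highest at 3.83. The part of H3 in the H3K27me3 levels of these 5 bins was not tested further.

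**Figure D3:**
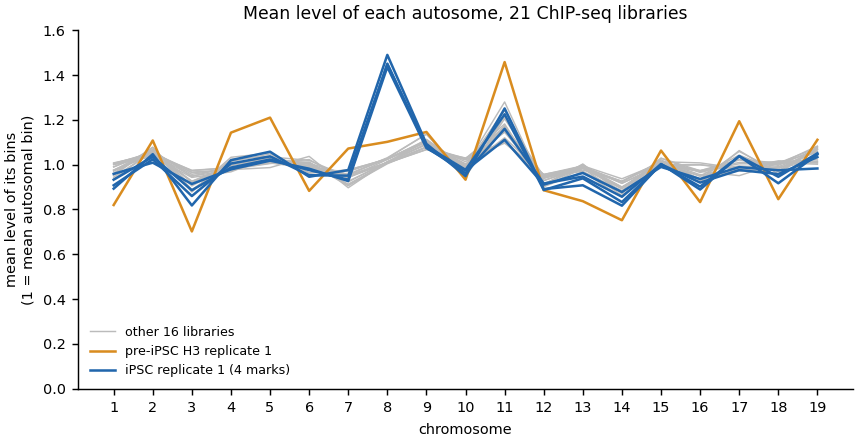
Mean level of the bins of each autosome (horizontal) in the 21 ChIP-seq libraries, as a multiple of the mean autosomal bin, with 1 line per library. On chromosome 8 the 4 lines of iPSC replicate 1 lie at 1.436 to 1.49 and the other 17 at 1.004 to 1.102.

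Chromosome 8 carried 7 of the 35 bins, and its level in iPSC replicate 1 bears on them. Divided by the mean of chromosome 8, their iPSC replicate 1 levels were 2.23 to 3.05, and 1 of the 7 still met the rule. Of the 28 bins on other chromosomes, 24 met it after the same division. Counts of bins called for H3K4me3 and of called genes that start in a bin are therefore also given without chromosome 8.

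H3K4me3 was above the genome mean at many of the bins in every cell type, and it rose in 9 and fell in 1 between MEFs and iPSCs. The median H3K4me3 level was 2.21 and 1.82 in MEFs, then 2.35 and 1.95 in pre-iPSCs, then 2.8 and 2.43 in iPSCs. Bins of the same GC content had medians of 1.23 and 1.34, 1.85 and 1.67, and 2.14 and 2.1. The level reached 3 in both libraries in 8 of the 35 bins in iPSCs (0.504% of all bins did) and in 7 in MEFs (1.21%). Of bins of the same GC content 11.6% and 12.7% reached 3 in the single iPSC libraries and 14.6% and 9.24% in the MEF libraries, where 13 and 10, and 17 and 7, of the 35 did. H3K4me3 was not used to choose the bins, and all 35 were among the 442485 bins tested with edgeR's quasi-likelihood test and Benjamini-Hochberg adjustment. Over all bins tested, 4.14% rose and 2.6% fell from MEFs to iPSCs. Among tested bins of the same GC content the shares were 30.1% and 0.842%. The 9 of 35 were thus above the share over all bins and near that over bins of like GC, a range that holds 17 of the 35, and these differences were not tested. The median log2 change was 0.28 over the 35 bins, 0.67 over bins of the same GC and -0.02 over all bins. Without the chromosome 8 bins 8 rose and 1 fell of 28, and without the 5 bins high in H3 the calls were the same 9 and 1 in number.

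The largest rise was in the first Prdm16 bin. Its H3K4me3 level was 0.765 and 0.851 in MEFs, then 2.74 and 1.79 in pre-iPSCs, then 2.80 and 3.46 in iPSCs, a log2 change of 1.98 (edgeR adjusted p = 0.000114). The intron bin of Unc5a (chr13:55075001-55080000), a netrin receptor of axon guidance, went from 0.680 and 0.932 to 2.49 and 2.06 (1.52, edgeR adjusted p = 0.00161). The bin that holds the start of Gp1bb and part of Septin5 (chr16:18620001-18625000) went from 1.49 and 1.18 to 3.54 and 3.83 (1.501, edgeR adjusted p = 0.00195). In each the MEF and iPSC libraries did not overlap. Both Col16a1 bins rose, from 0.978 and 0.648 to 2.22 and 2.06 at chr4:129765001-129770000 (1.43, edgeR adjusted p = 0.004) and from 1.02 and 1.01 to 2.88 and 2.22 at chr4:129755001-129760000 (1.36, edgeR adjusted p = 0.00443). The second Prdm16 bin, the bin at the start of Parvg (an actin-binding parvin), the Rbfox3 intron bin and the bin chr8:124800001-124805000 also rose, by log2 changes of 1.10 to 1.36. The change of the chromosome 8 bin was 0.658 without iPSC replicate 1, in which the mean H3K4me3 level of chromosome 8 was 1.447. With DESeq2 this bin did not pass (DESeq2 adjusted p = 0.0721). Of the bins that rose, only those of Gp1bb and Parvg hold a RefSeq TSS. With an offset for GC content 4 of the 9 kept their call, the first Prdm16 bin, the Unc5a and Gp1bb bins and the Col16a1 bin at chr4:129755001-129760000, and 2 bins fell, those of Mn1 and chr8:124755001-124760000. Without iPSC replicate 1 there were 6 rises and 0 falls, without iPSC replicate 2 9 rises and 0 falls, without MEF replicate 1 7 rises and 0 falls, and without MEF replicate 2 6 rises and 3 falls.

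Mn1, which codes for a transcriptional coregulator, had the bin in which H3K4me3 fell. The bin (chr5:111850001-111855000) meets an exon of the gene and was at 6.21 and 4.01 in MEFs, then 1.77 and 1.75 in pre-iPSCs, then 2.14 and 1.93 in iPSCs. The log2 change was -1.29 in iPSCs (edgeR adjusted p = 0.00354) and -1.52 in pre-iPSCs (edgeR adjusted p = 0.00214) against MEFs. Both calls held without MEF replicate 2 and were lost without any other single library, at edgeR adjusted p of 0.0568 to 0.085 in iPSCs and 0.0534 to 0.0731 in pre-iPSCs. H3K27me3 in the same bin was at 0.881 and 1.35 in MEFs, then 2.34 and 2.64 in pre-iPSCs, then 3.23 and 3.34 in iPSCs. In MEFs the bins that hold the starts of Scarf2, Osbpl5, Itpkb and Maml2 and the second Septin5 bin were at H3K4me3 levels of 3.12 to 5.61, and their changes did not pass the test.

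**Figure D4:**
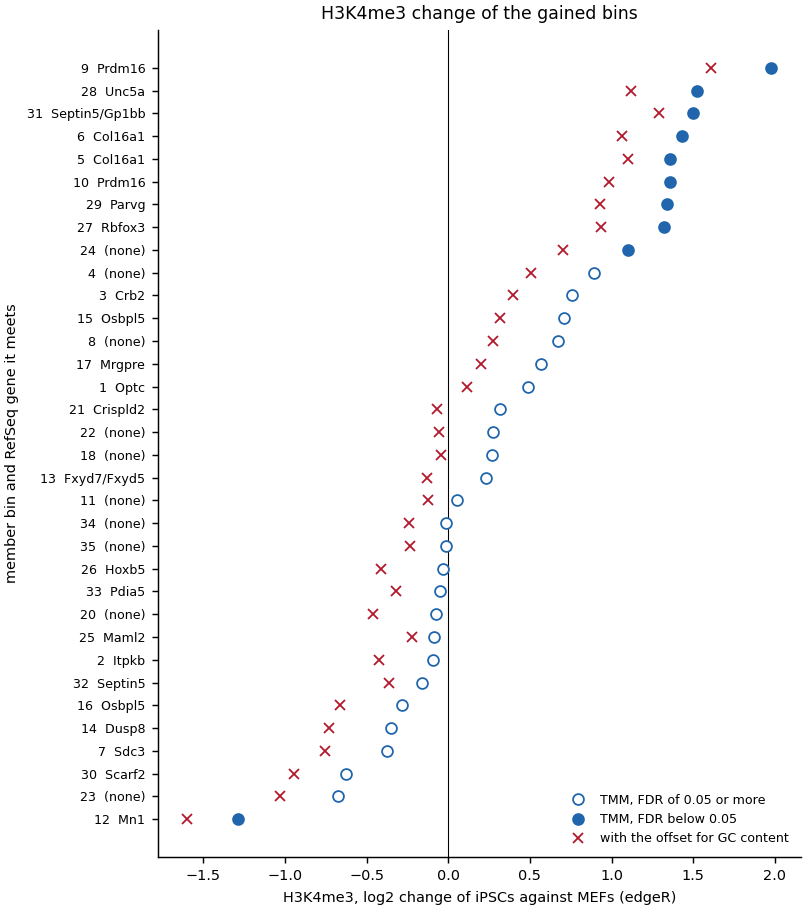
H3K4me3 log2 change from MEFs to iPSCs (horizontal) of 34 of the 35 bins (rows, with the RefSeq gene each meets), as circles that are filled where the edgeR adjusted p is below 0.05, and as crosses with an offset for GC content. The 9 filled circles on the right lie between 1.10 and 1.98 and that of the Mn1 bin at -1.29.

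Between MEFs and pre-iPSCs, a comparison that shares the MEF libraries with the one above, H3K4me3 rose in 7 bins and fell in 1, where 1.32% of all bins tested rose and 0.815% fell. Among bins of the same GC 6.6% rose and 0.67% fell. The bins that rose were the first Prdm16 bin (1.497, edgeR adjusted p = 0.00891), both Col16a1 bins, the Gp1bb, Parvg and Rbfox3 bins and an intergenic bin upstream of Grik3 (chr4:125075001-125080000), at log2 changes of 1.14 to 1.497. These calls depended on single libraries. Without pre-iPSC replicate 1 there were 0, without MEF replicate 1 there was 1 rise, and without pre-iPSC replicate 2 there were 2 rises, each with 0 falls, while without MEF replicate 2 there were 3 rises and 6 falls. DESeq2 gave 2 rises and 1 fall, and the offset for GC content gave 3 rises and 4 falls. Without the chromosome 8 bins the counts were 7 and 1 of 28. Between pre-iPSCs and iPSCs edgeR called 0 of the 35 bins in either direction (0.012% of all bins rose and 0.00158% fell). At an unadjusted p under 0.05 there were 5 rises and 0 falls, and the share of all bins at that threshold was not counted. The median log2 change was 0.227 over the 35 bins and 0.235 over bins of the same GC. DESeq2 called 0.

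Genes that start in the bins were mostly expressed in MEFs and lower in pre-iPSCs and iPSCs. Of the 9 such genes 8 passed the expression filter, which asks for an average FPKM of 0.5 or more across the libraries, and 7 of 9 fell while 0 rose from MEFs to iPSCs. Over all 12401 genes tested with limma, 15.5% fell and 10.3% rose. Of the 19300 autosomal genes, tested or not, 9.59% fell and 6.32% rose. Expression was not used to choose the bins, and a call needed an adjusted p under 0.05 together with a log2 difference of 1 or more on the log2(FPKM + 1) scale, which understates the change of low genes. A gene with little RNA in iPSCs passes the filter only through MEFs or pre-iPSCs, so the count is out of all 9 genes and not out of those that passed. Without iPSC replicate 1 the count was 4, with Optc, Scarf2 and Maml2 at limma adjusted p of 0.0557, 0.0627 and 0.0557. Without the filter on low FPKM it was 3, without the chromosome 8 bins it was 6 of 8 genes, and without the 5 bins high in H3 it was also 6 of 8. Without iPSC replicate 2 the count was 6 (Optc missed the threshold at limma adjusted p = 0.0672), and without MEF replicate 2 it was 6, since Optc no longer passed the filter.

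Crispld2, a secreted protein of the CAP family, was at 43.3 and 24.6 FPKM in MEFs, then 4.10 and 2.17 in pre-iPSCs, then 0.788 and 1.12 in iPSCs (log2 change -4.11, SE 0.414, limma adjusted p = 0.00125). Fxyd5, a regulatory protein of the sodium pump, was at 212 and 183 FPKM in MEFs, then 11.5 and 7.10 in pre-iPSCs, then 11.1 and 7.68 in iPSCs (-4.27, SE 0.336, limma adjusted p = 0.000732). These were the 2 largest falls among the 9, and in both the MEF values lay far above all others. Gp1bb, a subunit of the platelet receptor for von Willebrand factor, was at 8.64 and 26.2, 0.711 and 1.95, and 0.491 and 0.317 FPKM (-3.53, limma adjusted p = 0.00272). It adjoins Septin5, and reads that the counting could share between them were not separated here.

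Osbpl5, a lipid transfer protein of the oxysterol-binding family, fell from 26.7 and 23.6 FPKM in MEFs to 5.13 and 2.5 in pre-iPSCs, then 1.47 and 2.19 in iPSCs (-3.22, limma adjusted p = 0.00264). Maml2 fell from 10.3 and 13.2 to 3.26 and 1.09 and then 0.817 and 0.772 FPKM (-2.82, limma adjusted p = 0.0046). Scarf2, a scavenger receptor, fell from 27.03 and 13.9 to 2.94 and 3.61 and then 2.03 and 2.62 FPKM (-2.63, limma adjusted p = 0.00593). All 3 genes were thus low in pre-iPSCs already. Optc, which codes for a small leucine-rich proteoglycan, was at 1.97 and 2.38 FPKM in MEFs, listed at 0 and at 0.232 in pre-iPSCs, and at 0.074 and 0.097 in iPSCs (-1.54, limma adjusted p = 0.00813).

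The other 2 genes that start in the bins were not called in any comparison. Itpkb was at 2.06 and 0.162 FPKM in MEFs, then 3.55 and 1.36 in pre-iPSCs, then 0.222 and 0.486 in iPSCs, so its MEF libraries enclosed the iPSC values, and its change did not pass the test (-0.48, limma adjusted p = 0.456). Parvg was at or under 0.491 FPKM in every library and was not tested.

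**Figure D5:**
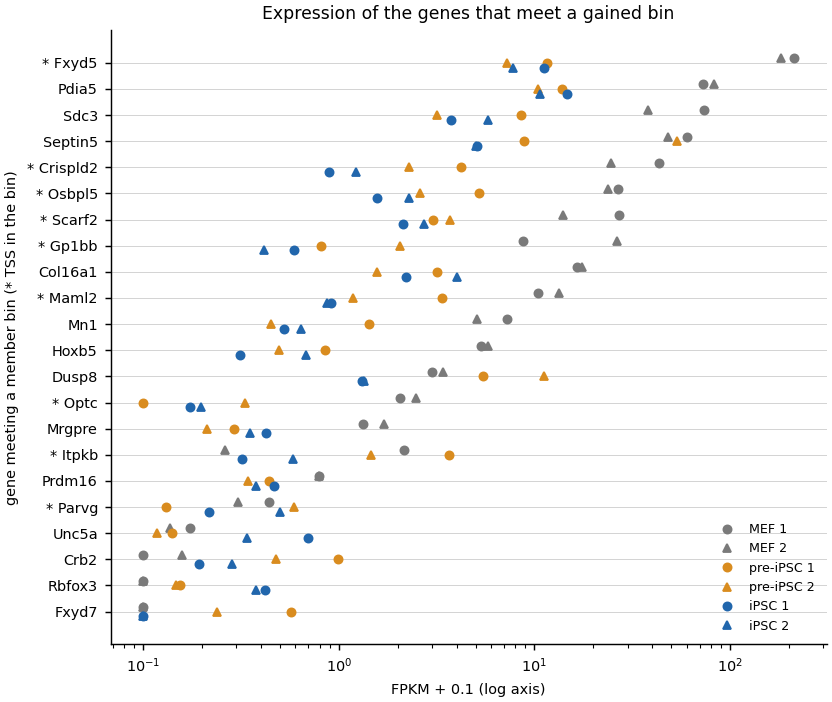
Expression of 22 of the 23 genes that meet the bins (rows, ordered by MEF level, with an asterisk where the TSS lies in the bin) as FPKM + 0.1 on a log axis, with 1 point per library, circles for replicate 1 and triangles for replicate 2. For the 7 genes that start in a bin and fell, both MEF points lie above all pre-iPSC and iPSC points.

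Against MEFs, pre-iPSCs showed the same count of falls, 7 of the 9 genes with 0 rises, where 9% of all genes tested fell and 7.39% rose. Of the 19300 autosomal genes, tested or not, 5.53% fell and 4.6% rose. Both comparisons share the MEF libraries, and without the chromosome 8 bins 6 of 8 genes fell. The log2 changes in pre-iPSCs were -4.30 for Fxyd5, -3.07 for Crispld2, -2.85 for Gp1bb, -2.49 for Osbpl5, -2.26 for Scarf2, -2.09 for Maml2 and -1.51 for Optc, with limma adjusted p of 0.000938 to 0.0179. Between pre-iPSCs and iPSCs limma called 0 of the 9 (4.71% of all genes fell and 3.91% rose). At an unadjusted p under 0.05 there were 2 falls and 0 rises, and the share of all genes at that threshold was not counted. Without MEF replicate 1 there were 7 falls and 1 rise against MEFs. Without pre-iPSC replicate 2 the count against MEFs was 5, with Osbpl5 and Maml2 at limma adjusted p of 0.105 and 0.281, and without pre-iPSC replicate 1 it was 6, with Scarf2 at 0.116. Without the filter limma called 0 of 9 in pre-iPSCs against MEFs, and 0 genes in the whole table.

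The wider set of genes whose body meets a bin numbered 23, of which 17 passed the filter. From MEFs to iPSCs 14 of the 23 fell and 0 rose, beside 15.5% and 10.3% of all genes tested. Of the 19300 autosomal genes, tested or not, 9.59% fell and 6.32% rose. Of these 14 calls 10 were lost without the filter on low FPKM and 7 without iPSC replicate 1. Beyond the 7 above, the genes that fell included Sdc3, a heparan sulfate proteoglycan of the syndecan family, Septin5, Pdia5, a protein disulfide isomerase of the endoplasmic reticulum, Mn1, Hoxb5 and Col16a1. Sdc3 was at 73.5 and 38.0 FPKM in MEFs, then 8.41 and 3.09 in pre-iPSCs, then 3.63 and 5.68 in iPSCs (-3.28, limma adjusted p = 0.00393). Pdia5 was at 72.6 and 83.1, 13.8 and 10.3, and 14.5 and 10.6 FPKM (-2.55, limma adjusted p = 0.00318). Both genes had no overlap between MEFs and the other cell types.

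Col16a1, Mn1 and Hoxb5 were lower in MEFs to start with. Col16a1 was at 16.4 and 17.4 FPKM in MEFs, then 3.07 and 1.46 in pre-iPSCs, then 2.10 and 3.94 in iPSCs (-2.19, limma adjusted p = 0.0118). Hoxb5, a homeobox factor of anterior-posterior patterning, was at 5.22 and 5.68, 0.753 and 0.395, and 0.212 and 0.578 FPKM (-2.22, limma adjusted p = 0.0045). Mn1 was at 7.10 and 4.97, 1.33 and 0.351, and 0.428 and 0.540 FPKM (-2.23, limma adjusted p = 0.0056), in the gene where H3K4me3 also fell. Septin5 was uneven between the pre-iPSC libraries, at 8.71 and 53.3 FPKM, with MEFs at 60.2 and 48.3 and iPSCs at 4.97 and 4.91 (-3.21 in iPSCs against MEFs, limma adjusted p = 0.0126). Without iPSC replicate 1 the calls of Col16a1, Mn1, Hoxb5 and Septin5 were lost, at limma adjusted p of 0.0545 to 0.0963, and that of Septin5 was also lost without iPSC replicate 2.

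Prdm16, Unc5a and Rbfox3, whose bins gained H3K4me3, were not expressed enough to be tested. Prdm16 was at 0.692 and 0.695 FPKM in MEFs, then 0.339 and 0.244 in pre-iPSCs, then 0.365 and 0.277 in iPSCs. Unc5a was at 0.074 and 0.038, 0.040 and 0.018, and 0.595 and 0.239 FPKM, and Rbfox3 was listed at 0 in both MEF libraries and was at 0.321 and 0.277 in iPSCs. Crb2, Fxyd7 and Parvg made up the rest of the 6 untested genes, each below 1 FPKM in every library. Of the other genes in bins that gained H3K4me3, Col16a1, Gp1bb and Septin5 fell in expression, and Parvg was not tested.

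From MEFs to pre-iPSCs 14 of the 23 genes fell too, 13 of which are among the 14 of iPSCs. Of all genes tested 9% fell, and of all autosomal genes, tested or not, 5.53% fell. All 14 calls were lost without the filter, 6 were lost without pre-iPSC replicate 2 and 2 without pre-iPSC replicate 1. Mrgpre, an orphan G protein-coupled receptor, fell in pre-iPSCs (1.23 and 1.602 to 0.190 and 0.113 FPKM, -1.07, limma adjusted p = 0.0417) and missed the threshold in iPSCs (0.325 and 0.253 FPKM, -0.90, limma adjusted p = 0.0524). Dusp8, a MAP kinase phosphatase, was the only one of the 23 to be called between pre-iPSCs and iPSCs. It was at 2.89 and 3.30 FPKM in MEFs, then 5.35 and 11.1 in pre-iPSCs, then 1.21 and 1.24 in iPSCs (-1.98 in iPSCs against pre-iPSCs, limma adjusted p = 0.0251). That call was lost without either iPSC library or without pre-iPSC replicate 2.

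For the bins without a RefSeq gene the nearest gene or the GENCODE host was read. The FPKM is that of the RefSeq gene, which does not hold the bin. Nfix, around the intron bin with low H3K27me3 in pre-iPSCs, fell from 42.4 and 117 FPKM in MEFs to 16.1 and 14.5 in pre-iPSCs, then 3.93 and 4.16 in iPSCs (-3.83 in iPSCs against MEFs, limma adjusted p = 0.00196). Its change between pre-iPSCs and iPSCs was -1.69 (limma adjusted p = 0.0697). Sema5b, near the pair on chromosome 16, rose from 0.771 and 0.664 to 3.06 and 2.88 FPKM in iPSCs (1.21, limma adjusted p = 0.0298), and Igsf21 rose from a listed 0 in both MEF libraries to 5.77 and 0.999 (1.88, limma adjusted p = 0.0225). Zfpm1 and Fgfr1 changed by -0.80 and -0.45 and did not pass the test. Grik3, Irf8 and Abcg3, the nearest genes of other such bins, did not pass the expression filter. Whether these genes are linked to the bins was not tested.

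The share of genes that fell is set here beside that of genes starting in other kinds of bins. Of 62 genes that start in the other rich bins, 3.23% fell and 3.23% rose from MEFs to iPSCs. Of 316 genes that start in bins with 2 to 3 times the mean in both iPSC libraries and below 2 in both MEF libraries, 44.6% fell and 0.633% rose. Of 3250 genes that start in bins of the same GC content 13% fell and 8.83% rose, and of 19300 autosomal genes 9.59% fell and 6.32% rose. The expression filter passed 18 of the 62, 215 of the 316 and 2419 of the 3250 genes. It passed 11974 of the 19300 genes and 8 of the 9. A gene that did not pass could not be called, so the shares also differ by how many genes were expressed. The 77.8% of the 9 genes is a share of few genes, and the difference between these shares was not tested.

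The gene lists compiled for this tissue did not cover the bins. Of 10 lists, including Hox, homeobox, Sox, Pax, Gata, T-box, Forkhead and bHLH factors, signalling genes and fibroblast genes, none had a gene that starts in a selected bin, and only Hoxb5 of the Hox list met one. Their members changed as follows. The number of genes that passed the expression filter follows in brackets, and a gene that did not pass could not be called. Of 40 (37) fibroblast and mesenchymal genes 33 fell from MEFs to iPSCs, and of 12 (12) smooth muscle genes 11 fell. Of 39 (30) Hox genes 23 fell and 1 rose. Of 28 (13) Sox, Pax and Gata factors 4 rose and 4 fell, and of 85 (35) other homeobox factors 9 rose and 16 fell. Of 36 (16) T-box and Forkhead factors 1 rose and 9 fell, and of 43 (14) bHLH factors 7 fell. Of 78 (44) signalling genes 9 rose and 16 fell, and of 25 (25) pluripotency genes 23 rose. Over all tested genes 15.5% fell and 10.3% rose, and the median log2 change was -0.14. Of the 19300 autosomal genes, tested or not, 9.59% fell and 6.32% rose.

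Of the Polycomb genes themselves, 6 of 28 rose and 3 fell from MEFs to iPSCs, beside 10.3% and 15.5% of all genes tested. Cbx7, a reader of H3K27me3, was at 0.866 and 0.509 FPKM in MEFs, then 3.47 and 5.10 in pre-iPSCs, then 52.7 and 49.5 in iPSCs (4.96, limma adjusted p = 0.000732). Jarid2, a partner of PRC2, rose from 2.86 and 1.26 FPKM to 32.2 and 34.0 (3.53, limma adjusted p = 0.0014) and Phc1 rose by 3.41, while Phc2 fell by 2.81. The catalytic subunit Ezh2 was at 26.0 and 14.1 FPKM in MEFs, then 40.3 and 27.2 in pre-iPSCs, then 38.5 and 46.5 in iPSCs (1.10, limma adjusted p = 0.0775), and its partners Eed and Suz12 did not pass the test either.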

How the data were processed

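Mouse MEFs, pre-iPSCs and iPSCs were compared by MNase ChIP-seq and RNA-seq. ChIP-seq reads were aligned by the authors with Bowtie 1.0.1 to mm9 and shifted 73 bp towards the centre of the nucleosome, and GeneTrack called the nucleosomes. The deposited value used here is the read count of each call, and reads outside calls were not used. For the RNA-seq data the authors mapped reads with TopHat2 2.0.4 and computed the deposited FPKM with Cuffdiff (Cufflinks 2.0.2) for 20156 genes, in 2 tables that each hold 1 replicate of every cell type. Libraries titled as repeats are replicate 2.

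Reads were summed at the call centre in 5-kb bins and divided by the mean autosomal bin of the library. The bins and the gene lists were chosen with earlier results of these data known. H3K4me3 counts of all 6 libraries were tested in 1 fit with edgeR 4.0.16 (filterByExpr, TMM, quasi-likelihood) at a false discovery rate of 0.05, and again with DESeq2 1.42.0. For expression limma 3.58.1 with trend was fitted to log2(FPKM + 1), and the table was a term. Each table was normalized on its own, so levels across replicates are not strictly comparable. H3K27me3 was not tested because it chose the bins. A fit with 1 library of a cell type left out assumes that the remaining one varies as the other groups do. Intervals are 95% Poisson intervals.

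Genes were named by a rule: list genes that start in a bin (there were 0), the 8 largest falls and rises among genes that start in a bin, the 10 bins of the highest iPSC level, the longest runs, the 5 largest H3K4me3 rises and falls, and the 3 bins nearest each threshold. The other genes that meet or adjoin a bin are named to account for every bin, after their values were seen. Septin5, whose symbol had turned into a date in the tables, was named by its RefSeq record. Gene positions are RefSeq, and exons GENCODE, on mm9. The genome sequence is mm9. Both tests were also run on simulated data with known changes, and the outcome is not reported here. The software was R 4.3.3 and Python 3.11.15 with pandas 2.3.3, numpy 2.4.6 and scipy 1.17.1. A gene and its bin are counted but not reported or drawn here. The call fuzziness and the authors' other analyses were not used here.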

Additional observations from a re-analysis of the deposited data

How the results depend on the processing

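How many bins met the rule depended on its thresholds and scaling. Instead of 35 there were 0 with an iPSC threshold of 4, 437 with 2.5, 16 with a MEF threshold of 1.5, 329 with only calls of at least 2 reads, 6 with 10-kb bins and 0 after division by H3. Leaving out 1 library gave 64 to 528, the highest without iPSC replicate 2. The following were chosen after seeing the data: division by H3 replicate 2 alone left 2, and scaling by bins of the same GC gave 3, of which 0 are among the 35. Chromosome scaling, also chosen after seeing the data, gave 39. Limiting calls to 50 reads, median scaling and moved bins gave 29 to 35. The cause was not tested. Without 1 pre-iPSC library, a setting added after seeing the data, 8 to 14 bins were at 3 or above in pre-iPSCs, instead of 6.

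For H3K4me3 in iPSCs against MEFs (10 calls), leaving out 1 library gave 6 to 9, the lowest without iPSC replicate 1, and the GC offset, chosen after seeing the data, gave 6. In pre-iPSCs against MEFs (8 calls) there were 5 without the filter, 3 with DESeq2 and 0 to 9 with 1 library left out, and the GC offset gave 3 rises and 4 falls instead of 7 and 1. For expression, genes that start in a bin and were called numbered 7 against MEFs in both iPSCs and pre-iPSCs. Without the filter there were 3 and 0, and over genes that meet a bin 14 and 14. Leaving out 1 library gave 4 to 7 and 5 to 8, and the 8, without MEF replicate 1, were 7 falls and 1 rise. Between iPSCs and pre-iPSCs 1 gene that meets a bin was called, instead of 0. Dropping the replicate block gave 7, 7 and 0, as with it. The libraries carry no shared number in the labels, and the block is the table. Among the selected bins and the genes that meet one, no call changed its direction in these settings. Calls of the other named genes, such as Nfix, Cbx7 and the marker genes, were not followed through them. Of the values of single bins and genes, 89 for H3K4me3 and 183 for expression stayed on their side of the threshold, and 53 and 45 no longer passed it. With 2 libraries per group and about 26 reads in the mean bin, differences under the counting error of a bin were not detectable.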

Other observations

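The expression of chromosome 8 moved with the ChIP level of that chromosome in iPSC replicate 1. Over the 672 genes of the chromosome that averaged 0.5 FPKM or more, the median log2 ratio of iPSC replicate 1 to replicate 2 was 0.52, while the medians of the other 18 autosomes ran from -0.128 to 0.156. Whether both libraries of replicate 1 come from the same culture is not stated in the sources used here. The ChIP values of MEFs, pre-iPSCs and iPSC replicate 2 showed no such level on chromosome 8, at 1.004 to 1.102.

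The reads of the selected bins were spread over many nucleosomes. A bin held 15 to 26 calls in iPSC replicate 1 and 11 to 24 in replicate 2, with a median of 22 in each, and a median of 16 and 18 in MEFs. In the chromosome 5 bin the largest call held 34% and 43.4% of the reads in pre-iPSCs and 41.5% and 32.3% in MEFs, and in the Maml2 bin it held 30.7% and 37.8%, and 23.1% and 24.5%.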
